A study of Danio rerio with 6 samples.

Results

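Serpins are a family of proteins that share one fold, and most of them inhibit serine proteases by offering a reactive loop that the protease cuts and that then traps it. The letter after the family name gives the clade. In vertebrates the liver makes most serpins of the blood, which hold coagulation, fibrinolysis and complement in check, while clade B serpins mostly stay inside the cell that makes them and the clade H serpin Hsp47 stays in the endoplasmic reticulum, where it assists procollagen. The serpin genes were taken as every gene of the deposited tables whose name starts with serpin in any case, which gave 23 of 25281 genes. By clade these were 4 genes of clade A, 1 of clade C, 1 of clade D, 3 of clade F and 1 of clade G (10 plasma serpins), 3 of clade E and 1 of clade I (4 serpins of the extracellular space), 3 of clade H, and 6 of clade B. The values and counts below cover 22 of the 23, with 2 genes of clade E.

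RNA was sequenced from dissected livers of *Tg*(*fabp10a:pt-β-catenin*) zebrafish larvae at 15 dpf. All larvae of both groups carried the transgene, which drives a stable Xenopus β-catenin in hepatocytes from the hepatocyte promoter *fabp10a*, and all were fasted during treatment. The control group received DMSO and the other group 1 µM GW7647, an agonist of the nuclear receptor PPARα, for 2 days from 13 dpf, with 3 libraries in each and 30 to 40 livers pooled per library. The comparison of GW7647 with DMSO asks how PPARα activation changes gene expression in these livers, in which progenitor cells derived from hepatocytes and biliary cells give rise to hepatocytes. The study calls the 3 libraries of a group independent samples, and the p-values cover the spread between these libraries. In such whole livers, fewer cells of a type and less RNA per cell cannot be told apart.

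The 6 libraries held 19961881 to 25224356 exon reads, so that 3 reads correspond to 0.127 to 0.163 CPM (reads relative to the library size, scaled by TMM normalization). No 2 libraries were identical. CPM values below compare a gene between libraries, and RPKM and TPM values, which are divided by exon length but not scaled by TMM, compare genes with each other. A DEG is a gene with at least 1.5-fold change and an adjusted p of at most 0.05 in edgeR's quasi-likelihood test over 15705 tested genes. Of all tested genes, 533 were DEGs higher with GW7647 (3.39%) and 412 were DEGs lower (2.62%), and the median log2 fold change was -0.01. The liver identity was checked with 18 hepatocyte genes, whose summed level was 44898 to 50126 CPM with DMSO and 64831 to 76368 CPM with GW7647.

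Levels spanned a wide range. With DMSO, the most abundant mRNA per length among the 22 genes was *serpina1*, at 1422 ± 224 RPKM (SD, n = 3). It encodes the fish counterpart of α1-antitrypsin, the inhibitor of neutrophil elastase in mammals. It was followed by *serpina1l* at 1169 ± 22.3 RPKM, *serpinf2b* at 489 ± 43.5 RPKM, *serpinc1* at 371 ± 40.7 RPKM and *serpinb1* at 159 ± 15.3 RPKM. The ranges of *serpina1* and *serpina1l* overlapped over the 3 DMSO libraries, whereas each of the next 3 genes lay clear of the gene after it. The ranges of *serpind1* and *serpinf2a*, at 124 and 110 RPKM, overlapped. At the low end, *serpini1*, which encodes neuroserpin in mammals, was at 0.0985 ± 0.0254 RPKM.

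With GW7647 the means of *serpina1* (2134 ± 58.4 RPKM) and *serpina1l* (1872 ± 377 RPKM) were again the first 2, with overlapping ranges, and *serpina1l* was the higher of the 2 in GW7647 replicate 3. *serpinc1* at 535 ± 32.6 RPKM and *serpinf2b* at 519 ± 45.3 RPKM then had overlapping ranges. *serpinf2a* stood at place 5 (173 ± 34.3 RPKM) after place 7 with DMSO, and *serpinb1* at place 7 (94.9 ± 14.3 RPKM) after place 5.

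**Figure D1:**
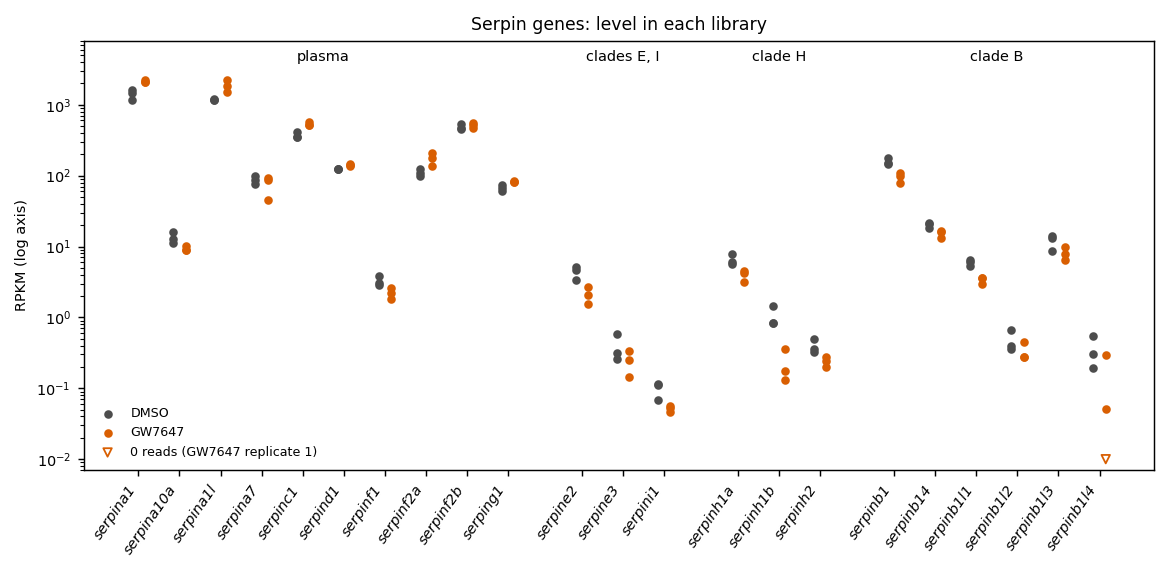
Level of each of the 22 serpin genes in each library in RPKM (log axis), grouped by the place where the proteins of a clade act; each point is 1 of 3 DMSO (grey) or 3 GW7647 (orange) libraries and the open triangle stands for 0 reads. *serpina1* and *serpina1l* lie highest in all 6 libraries, at 1155 RPKM or more, and *serpini1* and *serpinb1l4* lie among the lowest.

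The 22 serpin genes together took 0.688 to 0.859% of all TPM with DMSO and 1.01 to 1.2% with GW7647. *serpina1* and *serpina1l* made up 61.8 to 64.7% of the TPM of these 22 genes with DMSO and 69.7 to 71.5% with GW7647. The summed TPM of the plasma serpins was 8191, 6512 and 7456 with DMSO and 9923, 10657 and 11704 with GW7647. The sums of the other places were lower in every GW7647 library than in any DMSO library. For clades E and I together the sum was 9.24 ± 1.81 TPM with DMSO and 4.65 ± 1.26 TPM with GW7647 (SD, n = 3). For clade H it was 15.3 ± 0.991 and 8.61 ± 1.1 TPM, and for clade B 378 ± 36.4 and 237 ± 33.3 TPM. These sums carry no TMM scaling and follow the few abundant members, so they were not tested.

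**Figure D2:**
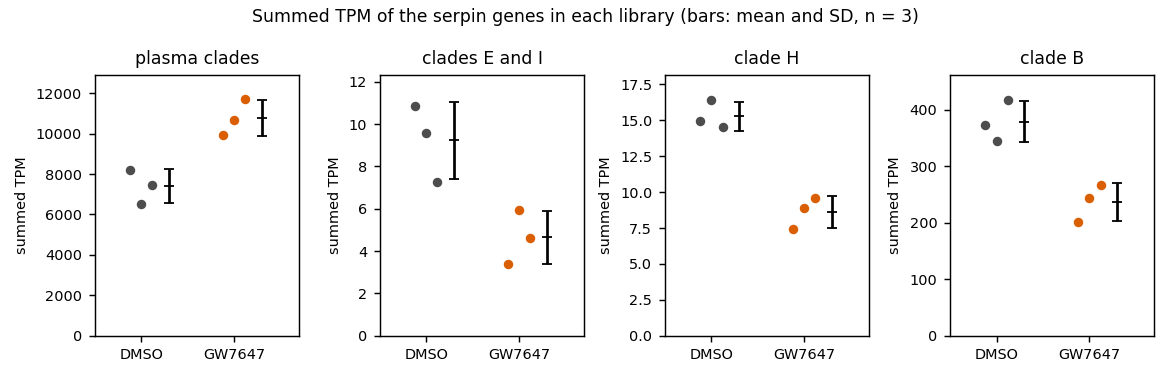
Summed TPM of the serpin genes in each library, by place, with the mean and SD of 3 libraries per group beside the points and every axis starting at 0. The plasma sum is 9923 to 11704 TPM in the GW7647 libraries and 6512 to 8191 TPM in the DMSO libraries, and the other 3 sums are lower in all 3 GW7647 libraries.

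Of the 22 members, 20 had enough reads to be tested. The DEGs higher with GW7647 were 4, all of them plasma serpins (*serpina1*, *serpina1l*, *serpinc1* and *serpinf2a*), beside 3.39% of all tested genes. The DEGs lower were 2, *serpinh1b* of clade H and *serpinb1l1* of clade B, beside 2.62% of all tested genes. Without the fold rule, 6 members passed the adjusted p alone with a higher level (5.5% of all tested genes) and 3 with a lower level (3.56%). All GW7647 libraries were above all DMSO libraries for 7 members (15.7% of all tested genes), each a plasma serpin, and below them for 6 tested members (15.3%), each of clade B, E or H. The median log2 fold change was 0.45 over the 10 plasma serpins, 7 above 0 and 3 below. It was -0.50 over the 10 tested serpins of the other places, all of which had a fitted value below 0, beside 51.8% of all tested genes. The count of lower DEGs depended on single libraries and on the scaling. It was 0 without GW7647 replicate 2 and 1 without DMSO replicate 1, DMSO replicate 2, GW7647 replicate 1 or GW7647 replicate 3. Without GW7647 replicate 3 that 1 gene was *serpinb1*, and neither *serpinh1b* nor *serpinb1l1* was called. The lower count was 3 without DMSO replicate 3 and 5 with library totals and no scaling factor, where the higher count was 2.

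**Figure D3:**
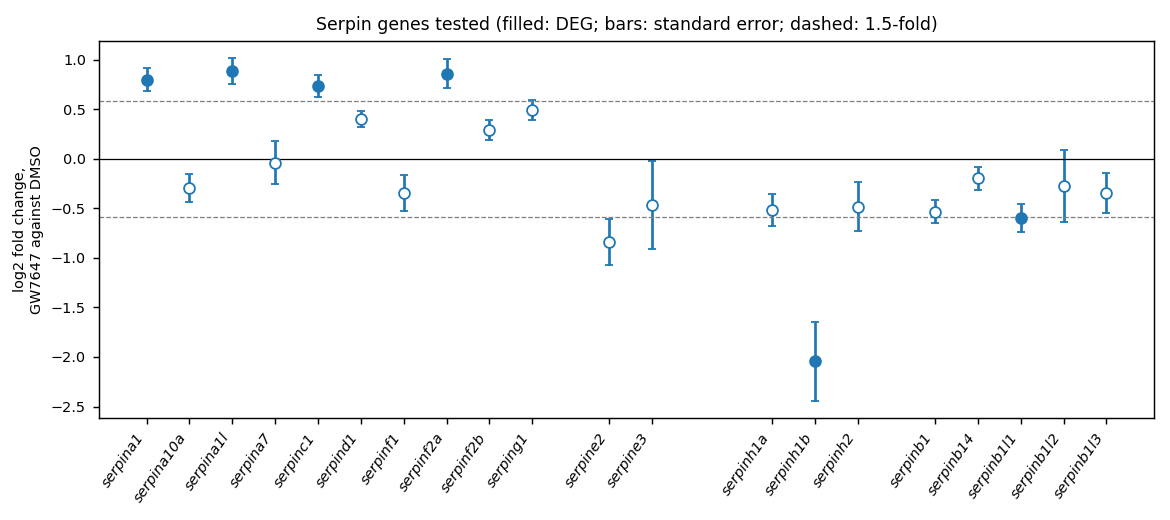
Log2 fold change of GW7647 against DMSO for the 20 tested serpin genes from the edgeR fit, with its standard error as bars, filled points for DEGs and dashed lines at a 1.5-fold change. From left to right stand the plasma clades, clade E, clade H and clade B, and the 4 filled points above 0 are all in the plasma clades.

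Among the clade A genes, *serpina1* and its neighbour rose together. *serpina1* (ENSDARG00000090286, chromosome 20, bases 10544100 to 10547411, plus strand) was at 2751, 2056 and 2413 CPM with DMSO and at 4227, 4213 and 4118 CPM with GW7647. The GW7647 libraries lay close together and above every DMSO library. Its log2 fold change was 0.80 (SE 0.11, edgeR adjusted p = 0.0045). *serpina1l* (ENSDARG00000090850, chromosome 20, bases 10538025 to 10541197, plus strand), a second gene of the α1-antitrypsin type, was at 2025, 2015 and 1931 CPM with DMSO and at 3085, 3528 and 4432 CPM with GW7647. Here the DMSO libraries were the close ones, and the groups did not overlap. Its log2 fold change was 0.89 (SE 0.13, edgeR adjusted p = 0.0053).

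The 2 genes lie 2902 bases apart on the same strand, and 81.7% and 81.3% of their exon reads mapped to one place only. Part of each gene's count could therefore belong to the other. The ratio of *serpina1l* to *serpina1* per length was 0.733, 0.976 and 0.797 with DMSO and 0.727, 0.834 and 1.07 with GW7647, so the ratio overlapped between the groups. From uniquely mapped reads alone the log2 fold changes were 0.80 and 0.89, the same as from all reads. The call of *serpina1l* held in all 17 alternatives. That of *serpina1* was lost when library totals were used with no scaling factor, where its log2 fold change was 0.57 and so under 1.5-fold.

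The other clade A genes were not DEGs. *serpina7*, whose mammalian counterpart is the thyroxine-binding globulin and does not inhibit proteases, ranged from 116 to 151 CPM with DMSO and from 84.3 to 159 CPM with GW7647, with a log2 fold change of -0.04 (edgeR adjusted p = 0.93) whose sign turned without DMSO replicate 3 or without GW7647 replicate 1. *serpina10a*, a gene of the type of the protein Z-dependent inhibitor of factor Xa, ranged from 30.7 to 45.8 CPM and from 29.2 to 32.5 CPM, with a log2 fold change of -0.30 (edgeR adjusted p = 0.23). Its counterpart *serpina10b* was listed under the clone name si:ch1073-416d2.3 and so fell outside the name rule. Its mean was 66.3 CPM in the DMSO libraries and 98.6 CPM in the GW7647 libraries, a log2 fold change of 0.57 (SE 0.12, edgeR adjusted p = 0.021) that stayed under 1.5-fold. *agt*, which encodes angiotensinogen, a serpin protein with another name, had a log2 fold change of 0.35 (edgeR adjusted p = 0.13). Its means were 2471 CPM with DMSO and 3150 CPM with GW7647, while those of *serpina1* were 2407 and 4186 CPM. All GW7647 libraries of *agt* were above all DMSO libraries, as for 15.7% of all tested genes. Outside the name rule too, *agt* is not in the levels, shares and counts of the serpin genes given here.

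The serpins that control coagulation and complement followed. *serpinc1* (ENSDARG00000042684, chromosome 22, bases 16022211 to 16028191, plus strand), which encodes antithrombin, the main inhibitor of thrombin and factor Xa, was at 1037, 885 and 850 CPM with DMSO and at 1702, 1448 and 1477 CPM with GW7647. Every GW7647 library was above every DMSO library, and the log2 fold change was 0.74 (SE 0.11, edgeR adjusted p = 0.0060). It was under 1.5-fold without a scaling factor, at 0.51, and in the fits on log2 RPKM and TPM, at 0.53 to 0.55.

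*serpind1*, for heparin cofactor II, another thrombin inhibitor, was the tightest member, at 315, 321 and 306 CPM with DMSO and 415, 418 and 414 CPM with GW7647. The log2 fold change of 0.40 (SE 0.08, edgeR adjusted p = 0.020) was under 1.5-fold and no DEG. Only 30.9% of its exon reads mapped to one place, with a log2 fold change of 0.41 from these reads, and the gene overlaps *pi4kab* on the other strand, which had 88 to 127 reads per library. *serping1*, for the C1 inhibitor, which blocks the first complement proteases and plasma kallikrein, was at 140, 156 and 126 CPM with DMSO and at 203, 197 and 194 CPM with GW7647. Its log2 fold change was 0.49 (SE 0.10, edgeR adjusted p = 0.021), also under 1.5-fold. Without a scaling factor neither *serpind1* (0.18, edgeR adjusted p = 0.15) nor *serping1* (0.27, edgeR adjusted p = 0.080) passed the adjusted p. With 1 library left out the adjusted p was 0.039 to 0.074 for *serpind1* and 0.022 to 0.068 for *serping1*, and both missed the threshold without DMSO replicate 3 and without any 1 of the GW7647 libraries.

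Of the 3 clade F genes, 1 was a DEG. *serpinf2a* and *serpinf2b* are the zebrafish copies of the α2-antiplasmin gene, the inhibitor of plasmin, and *serpinf1* encodes pigment epithelium-derived factor, which does not inhibit proteases. *serpinf2a* (ENSDARG00000076448, chromosome 21, bases 40092301 to 40104916, plus strand) was at 180, 234 and 198 CPM with DMSO and at 305, 368 and 439 CPM with GW7647. The groups did not overlap, and the log2 fold change was 0.86 (SE 0.15, edgeR adjusted p = 0.011), a call that held in all 17 alternatives. *serpinf2b* was at 1154, 1031 and 970 CPM with DMSO and at 1210, 1274 and 1385 CPM with GW7647. These groups did not overlap either, but the log2 fold change was 0.29 (SE 0.10, edgeR adjusted p = 0.11).

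*serpinf1* starts 1531 bases after *serpinf2a* on the same strand and was far lower, at 5.62, 6.20 and 7.56 CPM with DMSO and 4.29, 4.94 and 5.94 CPM with GW7647, with a log2 fold change of -0.35 (edgeR adjusted p = 0.27). The *serpinf2a* to *serpinf2b* ratio per length was 0.181 to 0.263 with DMSO and 0.292 to 0.367 with GW7647, and the *serpinf2a* to *serpinf1* ratio was 28.2 to 40.6 and 76.5 to 80.3. In both ratios the 3 GW7647 libraries were above the 3 DMSO libraries. These pairs were picked as lettered copies or neighbours after the values were known, and no test was run on them. The gene on the other side of *serpinf2a*, *slc13a5a*, at 8733 bases, had a log2 fold change of 2.03 (edgeR adjusted p = 0.00011).

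**Figure D4:**
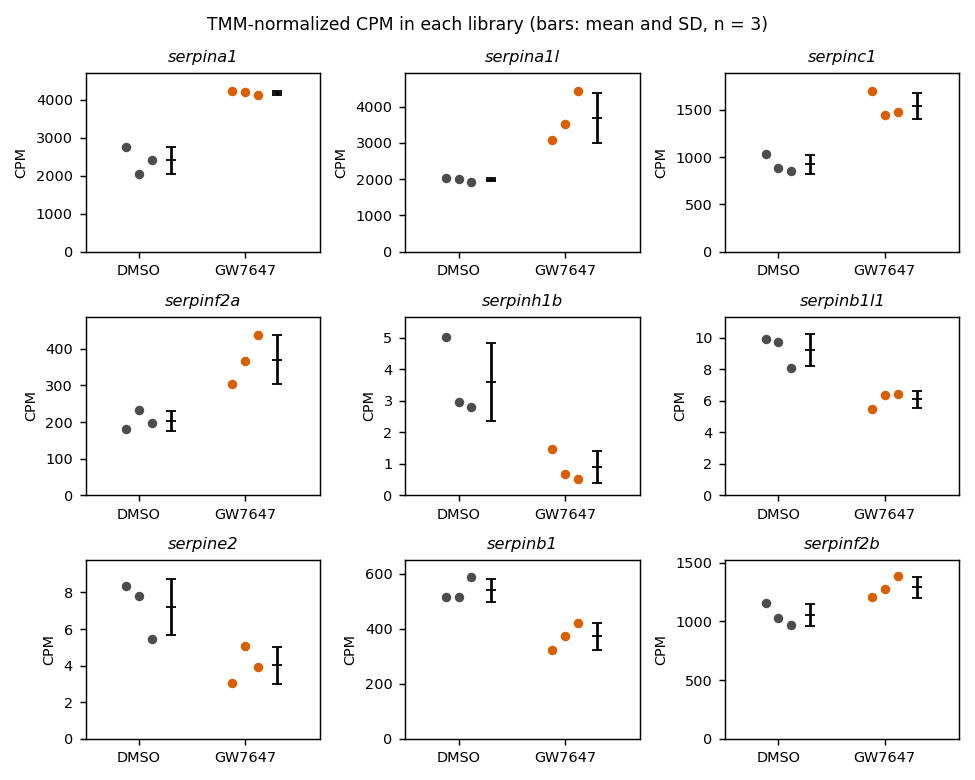
TMM-normalized CPM of 9 serpin genes in each of the 3 DMSO (grey) and 3 GW7647 (orange) libraries, with the mean and SD of each group beside the points and axes starting at 0. The groups are separate for all 9 genes, above DMSO in the top row, *serpinf2a* and *serpinf2b*, and below it in *serpinh1b*, *serpinb1l1*, *serpine2* and *serpinb1*.

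The extracellular serpins held no DEG in the reported fit. *serpine2*, for protease nexin 1, a thrombin and urokinase inhibitor of the cell surface, was at 8.38, 7.79 and 5.46 CPM with DMSO and at 3.04, 5.08 and 3.90 CPM with GW7647. The groups were separate by a small margin, and the log2 fold change of -0.84 (SE 0.23) had an edgeR adjusted p of 0.055. With the replicate number as a block it was -0.83 with an edgeR adjusted p of 0.021, a DEG. It was a DEG in 9 of 17 alternatives, among them DESeq2 (adjusted p = 0.014), no scaling factor and the fit without DMSO replicate 3, and its adjusted p was 0.043 to 0.15 with 1 library left out. *serpine3* was at 11 to 27 reads with DMSO and 6 to 15 with GW7647 (log2 fold change -0.47, edgeR adjusted p = 0.57), and its value was 0.01 without DMSO replicate 2. *serpini1* had 12, 8 and 12 reads with DMSO and 6 in each GW7647 library, too few to test.

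The 3 clade H genes were below DMSO in all GW7647 libraries, as were 15.3% of all tested genes. *serpinh1b* (ENSDARG00000019949, chromosome 15, bases 29382454 to 29388012, minus strand) is one of the zebrafish genes for Hsp47, the collagen chaperone. It was at 5.02, 2.95 and 2.80 CPM with DMSO (109, 69 and 64 reads) and at 1.47, 0.678 and 0.509 CPM with GW7647 (27, 14 and 12 reads). It fell by 2.05 on the log2 scale (SE 0.40, edgeR adjusted p = 0.016). The adjusted p was 0.067 without GW7647 replicate 2 and 0.053 without GW7647 replicate 3, so the call was lost without either of them. The gene overlaps *gdpd5b* on the other strand, which had 637 to 1109 reads per library and a log2 fold change of -0.02, and whether the counting used strand is not given in the sources used here. *serpinh1a*, the second Hsp47 gene, was more abundant, at 22.5, 31.6 and 23.5 CPM with DMSO and 14.9, 18.9 and 20.2 CPM with GW7647. Its log2 fold change was -0.52 (SE 0.16, edgeR adjusted p = 0.082). With the replicate number as a block the adjusted p from edgeR was 0.014, at under 1.5-fold. The *serpinh1b* to *serpinh1a* ratio per length was 0.107 to 0.255 with DMSO and 0.0288 to 0.113 with GW7647, which overlapped. *serpinh2* was at 46 to 67 reads and 28 to 45 reads (log2 fold change -0.48, edgeR adjusted p = 0.26).

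Hsp47 works on procollagen, so collagen genes and collagen-modifying enzymes were read beside clade H. Of 19 such genes tested, 3 were DEGs lower and none was higher, with a median of -0.21. Of all tested genes, 2.62% were DEGs lower and 3.39% higher, and these shares also stand beside the gene lists below. The 3 lower genes were fibrillar collagen genes, *col1a1b* (-1.09, edgeR adjusted p = 0.017), *col5a1* (-0.87, edgeR adjusted p = 0.0095) and *col5a2a* (-0.71, edgeR adjusted p = 0.033). *col1a2* had the lowest value at -1.53 (edgeR adjusted p = 0.053), *col1a1a* was at -1.50 (edgeR adjusted p = 0.067), and *col6a1* had the highest at 0.54 (edgeR adjusted p = 0.071). Of 10 mesenchymal cell markers, 8 were tested, 5 of them were DEGs lower and none was higher (median -0.77), among them *pdgfra* (-0.60, edgeR adjusted p = 0.017) and *acta2* (-1.54, edgeR adjusted p = 0.032). Their summed level was 342 to 649 CPM with DMSO and 234 to 347 CPM with GW7647. That sum was mostly *steap4*, whose group means were 351 CPM (DMSO) and 208 CPM (GW7647). *steap4* was not a DEG (-0.75, edgeR adjusted p = 0.19), and its libraries overlapped between the groups. *dcn* and *lum* of this list were near 0 in both groups (0.514 and 0.0291 CPM with DMSO), and *col5a1* stands in both lists. The part of the mesenchymal markers in the clade H values was not tested.

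The clade B genes were all fitted below DMSO, and 1 was a DEG. *serpinb1l1* (ENSDARG00000095830, chromosome 16, bases 51266502 to 51272006, minus strand), a clade B gene of the *serpinb1* type, was at 9.94, 9.71 and 8.08 CPM with DMSO and at 5.49, 6.39 and 6.45 CPM with GW7647. It fell by 0.59 on the log2 scale (SE 0.14, edgeR adjusted p = 0.036), a 1.51-fold difference just past the rule. The call was lost in 5 of the 6 fits that left out 1 library and was kept without DMSO replicate 3. *serpinb1*, whose mammalian counterpart inhibits the proteases of neutrophil granules, was by far the most abundant gene of the clade. It was at 517, 513 and 587 CPM with DMSO and at 322, 375 and 420 CPM with GW7647. Its log2 fold change of -0.54 (SE 0.12, edgeR adjusted p = 0.026) was a 1.45-fold difference, under the rule, and the groups did not overlap. It became a DEG with upper-quartile normalization (-0.59), without GW7647 replicate 3 (-0.63), without a scaling factor (-0.76) and in the 3 limma fits (-0.75 to -0.72). Its adjusted p missed the threshold without DMSO replicate 3 (0.077), GW7647 replicate 1 (0.079) or GW7647 replicate 2 (0.088).

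The other clade B genes did not pass the adjusted p in the reported fit. *serpinb14*, at 34.9 to 41.9 CPM with DMSO and 30.2 to 37.1 CPM with GW7647, had a log2 fold change of -0.20 (edgeR adjusted p = 0.32). *serpinb1l3*, at 14.7 to 24.5 and 13.2 to 19.3 CPM, had -0.35 (edgeR adjusted p = 0.32) and overlaps *rmdn1* on the other strand, with 3036 to 4323 reads per library. With the replicate number as a block it was -0.34 with an edgeR adjusted p of 0.045, under 1.5-fold. *serpinb1l2*, at 17 to 30 and 13 to 20 reads, had -0.28 (edgeR adjusted p = 0.69), with 0.04 without DMSO replicate 3. *serpinb1l4* was not tested, at 6, 19 and 10 reads with DMSO and 0, 10 and 2 reads with GW7647. On chromosome 16, 11807 bases separate *serpinb14* from *serpinb1l1* and 20617 bases separate *serpinb1l1* from *serpinb1l4*, while *serpinb1* and *serpinb1l2* lie 27940 bases apart on chromosome 20.

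Cell markers that clade B serpins could follow were read next. Of 8 neutrophil markers, 2 were DEGs lower, *mpx* (-1.16, edgeR adjusted p = 0.023) and *mmp9* (-0.86, edgeR adjusted p = 0.039), and none was higher (median -0.72). The summed level of the list was 58.1 to 113 CPM with DMSO and 52.5 to 56.7 CPM with GW7647. It was mostly *srgn*, whose group means were 50.4 CPM (DMSO) and 39.2 CPM (GW7647). *srgn* was not a DEG (-0.36, edgeR adjusted p = 0.18), and its libraries overlapped between the groups. The entry mmp13a_2 was uneven, at 14.5 ± 18.4 CPM with DMSO (SD, n = 3), and overlapped too. Of 10 macrophage markers, 2 were DEGs lower (median -0.29, 104 to 129 and 92.8 to 103 CPM). Of 10 markers of biliary epithelial cells, 2 were DEGs lower (median -0.23, 13125 to 14716 and 11375 to 11962 CPM), *epcam* (-0.62, edgeR adjusted p = 0.022) and *cldn7b* (-0.85, edgeR adjusted p = 0.032). That sum was mostly *krt18a.1*, *krt8* and *anxa4* (-0.30, -0.13 and -0.17), which were not DEGs. *her9* was at -0.05 (edgeR adjusted p = 0.92), and *cldnc* was the 1 marker fitted higher (0.14, edgeR adjusted p = 0.61). The part of these markers in the clade B values was not tested. Of 13 tested intracellular proteases, the targets of such inhibitors among them, 2 were DEGs lower and none was higher (median -0.26), *ctsh* (-0.61, edgeR adjusted p = 0.032) and *ctsc* (-0.60, edgeR adjusted p = 0.012), which encodes the cathepsin that activates granule proteases in mammals. The extremes of the list were *prss59.2* (-2.51, edgeR adjusted p = 0.23) and *caspa* (0.39, edgeR adjusted p = 0.16). *prss59.2* is a trypsinogen-type gene of the digestive tract rather than an intracellular protease, and was at 9.83 ± 14.1 CPM with DMSO (SD, n = 3).

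Of 16 tested genes listed as proteases that plasma serpins act on, or that act beside these, 6 were DEGs higher and 1 was lower. Their median was 0.49. The 16 include *hgfa*, which encodes a growth factor, and *f7i*, for an inactive factor VII type, so not all are active proteases. Neither was a DEG (-0.42, edgeR adjusted p = 0.39, and 0.50, edgeR adjusted p = 0.060). *f2*, for prothrombin, the target of antithrombin and heparin cofactor II, had a log2 fold change of 0.54 (edgeR adjusted p = 0.0080), under 1.5-fold, and *f10* had 0.17 (edgeR adjusted p = 0.31). The coagulation genes *f7* (0.63, edgeR adjusted p = 0.0044), *f9a* (0.83, edgeR adjusted p = 0.0083) and proca_2 (0.72, edgeR adjusted p = 0.012) were DEGs higher. Their copies *f9b* (0.29, edgeR adjusted p = 0.069) and proca_1 (0.47, edgeR adjusted p = 0.022) were not DEGs. *plg*, for plasminogen, whose active form α2-antiplasmin blocks, rose by 0.70 (edgeR adjusted p = 0.014). *masp2*, a lectin-pathway protease that the C1 inhibitor blocks, rose by 1.09 (edgeR adjusted p = 0.0033), and *c1r* by 0.79 (edgeR adjusted p = 0.023). *c1s* (-0.63, edgeR adjusted p = 0.13) and *masp1* (-0.37, edgeR adjusted p = 0.054) also encode early complement proteases of the kind that the C1 inhibitor blocks. Both were below DMSO in all GW7647 libraries without passing the test. Of all tested genes, 15.3% were below DMSO in this way. In all, 5 of the 16 were fitted lower. The single lower DEG, *plat*, encodes tissue-type plasminogen activator, which turns plasminogen into plasmin, and fell by 1.71 on the log2 scale (edgeR adjusted p = 0.013), with means of 6.53 CPM under DMSO and 1.98 CPM under GW7647.

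Cofactors and receptors of plasma serpins or of plasma proteases held 2 higher DEGs among 12 tested (median 0.08), beside 3.39% of all tested genes. These were *prozb* for protein Z, the cofactor of the clade A10 inhibitor (0.66, edgeR adjusted p = 0.0064), and si:ch73-361h17.1, named *asgr1a* in the symbol table, for an asialoglycoprotein receptor (0.85, edgeR adjusted p = 0.0017). The other protein Z gene, *proza*, had means of 37.6 CPM under DMSO and 39.2 CPM under GW7647. Its log2 fold change was 0.06 (edgeR adjusted p = 0.79), while the *prozb* means were 37.6 and 59.5 CPM. The lowest value of that list was that of *f3a* (-1.11, edgeR adjusted p = 0.051). *vtna* and *vtnb*, for vitronectin, an adhesion protein of plasma, had 0.11 (edgeR adjusted p = 0.58) and 0.52 (edgeR adjusted p = 0.014). Protease inhibitors of other families held 4 higher DEGs and 1 lower among 17 tested (median 0.23). The higher ones were *ahsg2* (1.57, edgeR adjusted p = 0.011), *ahsg1* (1.34, edgeR adjusted p = 0.014), *a2ml* for an α2-macroglobulin (0.60, edgeR adjusted p = 0.014) and *kng1* for kininogen (0.59, edgeR adjusted p = 0.0045). The lower one was *timp2b* for a metalloprotease inhibitor (-2.15, edgeR adjusted p = 0.031), at an uneven 39.9 ± 30.8 CPM with DMSO (SD, n = 3). At under 1.5-fold, *tfpia* (-0.56, edgeR adjusted p = 0.015) and *spint2* (-0.42, edgeR adjusted p = 0.019) passed the adjusted p lower. *itih2* passed it higher (0.39, edgeR adjusted p = 0.0496). Of the 17, 10 were fitted higher and 7 lower.

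Secreted serpins fold in the endoplasmic reticulum, where misfolded α1-antitrypsin is also cleared. Of 24 genes for folding, export and degradation there, 1 was a DEG higher, *derl3* (0.59, edgeR adjusted p = 0.013), and none was lower (median 0.19). Of all tested genes, 3.39% were DEGs higher and 2.62% lower. Of the 24, 20 were fitted higher and 4 lower, while 51.8% of all tested genes were fitted lower. All GW7647 libraries were above all DMSO libraries for 9 of the 24 and below them for none. These shares were 15.7% and 15.3% of all tested genes. *surf4* passed the adjusted p higher at under 1.5-fold (0.41, edgeR adjusted p = 0.027). The cargo receptor *lman1* had 0.49 (edgeR adjusted p = 0.10), the chaperone *hspa5* 0.10 (edgeR adjusted p = 0.70), and *ero1a* the lowest value, -0.33 (edgeR adjusted p = 0.47).

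Other hepatocyte genes were read beside the plasma serpins. Of the 18 hepatocyte markers, 17 were tested, 8 were DEGs higher and none was lower, with a median of 0.62 and no overlap between the groups in their summed level. The largest parts of that sum were *bhmt* and *apoa2*, with means of 9451 and 8064 CPM under DMSO. *a2ml*, a higher DEG, *ambp* and *fetub* also stand in the list of protease inhibitors of other families. *rbp4*, for the retinol carrier of plasma, had the highest value (1.62, edgeR adjusted p = 0.0025), and *fabp10a*, whose promoter drives the transgene, the lowest (-0.36, edgeR adjusted p = 0.0496). *fabp10a* thus passed the adjusted p lower, at under 1.5-fold. All its GW7647 libraries were below all DMSO libraries, as for 15.3% of all tested genes. *fga* and *fgb*, for fibrinogen chains, rose by 0.63 (edgeR adjusted p = 0.0036) and 0.71 (edgeR adjusted p = 0.0028), while *fgg*, for the third chain, was at 0.32 (edgeR adjusted p = 0.096). Of 16 liver transcription factor genes, 2 were DEGs higher (median -0.01), *hnf4a* (0.66, edgeR adjusted p = 0.023) and *hnf4b* (1.03, edgeR adjusted p = 0.0037). *pparab*, for the zebrafish copy b of the receptor that GW7647 activates, had the lowest value (-0.70, edgeR adjusted p = 0.25). Its means were 2.48 CPM under DMSO and 1.51 CPM under GW7647. Copy a, *pparaa*, was more abundant, with means of 11.3 and 9.23 CPM, and was at -0.29 (edgeR adjusted p = 0.22). The part of the share of hepatocytes in the plasma serpin values was not tested.

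Markers of the other cells a dissected liver could hold gave few calls. None of 8 endothelial markers was a DEG (median -0.15, *kdrl* at 0.13 with an edgeR adjusted p of 0.43). Of 8 epidermis genes tested, 1 was higher and 1 lower (median -0.02). None of 9 tested genes of the acinar pancreas was a DEG (median -1.21), with a summed level of 10.7 to 84.8 CPM with DMSO and 13.1 to 22.6 CPM with GW7647. None of 4 tested erythroid genes was a DEG (median 0.08).

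**Figure D5:**
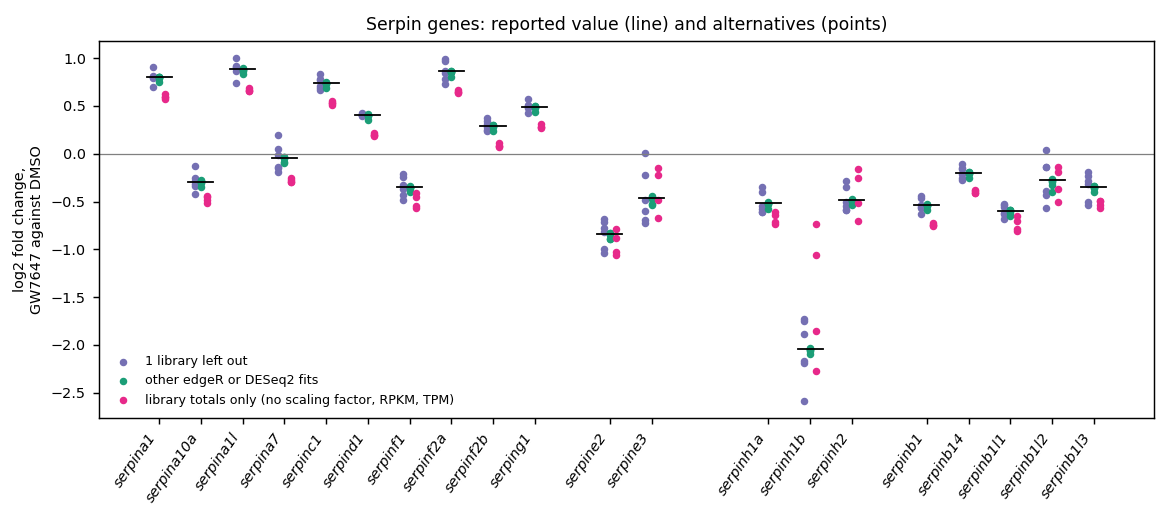
Log2 fold change of the 20 tested serpin genes as reported (black line) and in the alternatives, with 1 library left out (purple), in other edgeR and DESeq2 fits (green) and with library totals only, as counts without a scaling factor, RPKM or TPM (pink). The pink points lie below the line for all plasma serpins, and *serpina1*, *serpina1l*, *serpinc1* and *serpinf2a* are above 0 at every point.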

How the data were processed

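RNA-sequencing of 6 liver libraries was read from tables that the authors made with CLC Genomics Workbench from TruSeq stranded mRNA libraries; its version, the genome build and the rule for reads that map to several places are not given in the sources used here. Deposited counts are whole numbers of reads on a gene's exons, which the authors left without normalization. The deposited RPKM and TPM values, which the authors' software derived from these reads by exon length and library total, served to compare genes and as alternatives. Positions are as deposited, counted from 1.

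A quasi-likelihood model was fitted with edgeR 4.0.16 (R 4.3.3) to all 6 libraries with no covariate, on genes that passed filterByExpr at a minimum count of 10, scaled by TMM. The adjustment of p-values was that of Benjamini and Hochberg across 15705 genes, and standard errors come from the F statistic. The thresholds of 1.5-fold and 0.05 are those of the study. Values of all libraries were given for each serpin DEG and for the abundant members of a clade. For the gene lists, counts and medians were given, and the single genes named are a selection. Some lists have more than 3 genes named beyond the extremes. The macrophage, epidermis, acinar pancreas and erythroid lists have none named. The members and gene lists were chosen with earlier results of these data known. Of 228 list entries, 12 were not found and 11 were found through the symbol table or as numbered copies. On simulated counts with 200 of 15705 genes changed 2-fold in the comparison of GW7647 with DMSO, 171 were recovered with 18 false calls. The changed genes were drawn only from genes above a cutoff on mean reads, in both directions at random. All serpin DEGs but *serpinh1b* changed by less than 2-fold, so these numbers do not give the recovery for the serpin genes.

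Pairing by replicate number was looked for in the deviations of the libraries from their group means. The correlation was 0.161 to 0.324 for the 3 same-numbered pairs and -0.239 to 0.0754 for the others. Each same-numbered pair was thus above every other pair, and the reported fit held no block. The numbers come from the labels.

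As alternatives, the fit was repeated with DESeq2 1.42.0, with upper-quartile normalization, with no scaling factor, with a filter of 1 read in any library or of 10 reads in all of them, with the replicate block, each library left out, uniquely mapped exon reads, all gene reads, and limma 3.58.1 on log2(RPKM + 1), log2(RPKM + 0.1) and log2(TPM + 1). Figures were drawn with matplotlib 3.10.9. No genome, promoter or protein sequence was used here. 1 gene of the family is not reported here.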

Additional observations from a re-analysis of the deposited data

How the results depend on the processing

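Of 339 log2 fold changes of single serpin genes under the alternatives, 304 kept their direction and their side of the DEG rule, 19 passed it newly, 12 lost it, and 4 changed sign. The signs changed when 1 library was left out. Over these fits *serpina7* ranged from -0.19 to 0.20 (reported -0.04), *serpine3* from -0.73 to 0.0058 (reported -0.47) and *serpinb1l2* from -0.56 to 0.0435 (reported -0.28), none of them past the adjusted p. The count of higher serpin DEGs was 4 in the reported fit, 3 in each of the limma fits and 2 without a scaling factor. That of lower ones was 2, then 4 with upper-quartile normalization, 5 without a scaling factor, 5 with log2(RPKM + 1), 5 with log2(RPKM + 0.1) and 5 with log2(TPM + 1), and 0 to 3 with 1 library left out. Over all tested genes, the 533 higher DEGs became 321 without a scaling factor, 260 with log2(RPKM + 1), 316 with log2(RPKM + 0.1) and 297 with log2(TPM + 1). The 412 lower ones became 1511 without a scaling factor, 1283 with log2(RPKM + 0.1), 778 with log2(TPM + 1), and 189 to 340 with 1 library left out. With the replicate block the higher count was 669 and the lower count 699, and the block changed no serpin DEG call but that of *serpine2*. Without a scaling factor the median of all genes was -0.23 against -0.01, with the limma fits it was -0.14 to -0.21, and the higher share of all DEGs was 17.5% without a scaling factor, 45.7% with upper-quartile normalization, 19.8 to 31.6% with limma and 56.4% as reported. The TMM factors were 1.05 to 1.1 with DMSO and 0.903 to 0.940 with GW7647, and why the groups differ was not tested. *serpini1*, *serpinb1l2*, *serpinb1l4* and *serpine3* had at most 30 reads in any library, and differences between their groups could not be shown at this depth.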
